A study of Mus musculus with 8 samples.

Results

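The integrated stress response and the unfolded protein response (UPR) are the programs by which a cell handles scarce amino acids and proteins that fail to fold in the endoplasmic reticulum (ER). Kinases that sense these stresses phosphorylate the initiation factor eIF2, which lowers general translation while *Atf4* mRNA is translated more, and ATF4 protein then switches on genes for amino acid synthesis, uptake and 1-carbon metabolism. In the ER, the sensors PERK, IRE1 and ATF6 respond to unfolded protein, and ATF6 and the spliced form of XBP1 raise chaperones and foldases. Osteoclasts, the bone-resorbing cells of the macrophage lineage, export large amounts of protease and acid and so carry a heavy secretory load. The 39 genes described here, of 46517 in the deposited table, were listed by name for what they are known to do. The list was made with earlier results of these data known. The genes fall into 2 arms. The ATF4 arm holds 20 genes, ATF4 with its targets in amino acid and 1-carbon use, and the ER arm holds 19 genes of protein folding in the ER, with the 3 sensors.

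Bone marrow cells came from 6- to 8-week-old mice, either with a germline deletion in both copies of *Elmo1* (*Elmo1-/-*) or *Elmo1+/-*. They were first cultured with 10% L929 cell-conditioned medium, as a source of M-CSF. Attached cells were then replated and cultured with 50 ng/ml GST-RANKL for 7 days, and the mRNA was read by paired-end sequencing (75 bp). Each genotype had 4 libraries, 1 from each mouse. The controls carry 1 intact copy of *Elmo1*, although their titles call them WT. The methods place 2 mice of each genotype in each experiment, but not which mice shared one. The cultures were sequenced whole, so fewer cells of a type and less RNA per cell cannot be told apart in any value below. ELMO1 is an adaptor that, with DOCK proteins, activates the GTPase RAC, and *Elmo1* itself (chr13:20090596-20608353, GRCm38) gave normalized counts of 274, 287, 316 and 291 in *Elmo1-/-* libraries 1 to 4 and 1528, 1423, 1769 and 1651 in *Elmo1+/-* libraries 1 to 4. The genotypes were far apart at the deleted gene (log2 fold change -2.44, SE 0.088, limma adjusted p = 8.40e-06), which was the 1 gene of 14139 tested that passed the adjusted threshold of 0.05 (0.00707%). Counts per gene do not show which exons the remaining reads came from. The totals lay between 20905502 and 40846651 reads per library. Libraries numbered 3 and 4 stood apart from those numbered 1 and 2 in both genotypes along the first principal component, which held 62.3% of the variance. *Elmo1-/-* library 2 lay at -6.03, between the other libraries numbered 1 and 2 (-52.3 to -23.1) and those numbered 3 and 4 (24.7 to 31.9). Summed normalized counts of 10 osteoclast markers were 450909 to 692445 in libraries 1 and 2 and 1029113 to 1173015 in libraries 3 and 4. Each of the 10 was higher in all 4 of the latter, against 18.1% of all genes tested.

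The 2 arms are known for different promoter elements, and a few promoters are shown here to set the elements beside the members. RefSeq promoter windows (GRCm38.p6, 250 bases before to 50 after the start site) were matched by symbol for 34 of the 39 genes, and *Aldh1l2*, *Slc7a5*, *Hyou1*, *Atf6* and *Manf* had none in the table used. The core of the C/EBP-ATF response element (CARE), to which ATF4 binds with C/EBP partners, was searched as TGATGNAA on both strands and was present in 5 of 18 ATF4-arm promoters (*Trib3*, *Asns*, *Pycr1*, *Chac1* and *Slc7a11*) and in 1 of 16 ER-arm promoters (*Herpud1*), against 3.97% of 32851 promoters. In the following stretches, written 5′ to 3′ along the strand of the gene, capitals mark the CARE core on either strand, and *Slc7a11* holds it on both.
Asns (chr6:7693210-7693262, minus strand): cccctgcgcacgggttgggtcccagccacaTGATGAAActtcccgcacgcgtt
Chac1 (chr2:119351019-119351086, plus strand): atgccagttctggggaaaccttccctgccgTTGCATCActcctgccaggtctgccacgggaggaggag
Slc7a11 (chr3:50443623-50443709, minus strand): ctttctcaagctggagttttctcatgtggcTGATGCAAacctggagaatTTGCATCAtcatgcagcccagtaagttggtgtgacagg

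The ER stress element (ERSE), bound by ATF6 and XBP1 with NF-Y, was searched as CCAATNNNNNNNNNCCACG on both strands. It was present in 7 of 16 ER-arm promoters (*Hspa5*, *Hsp90b1*, *Calr*, *Canx*, *Pdia6*, *Dnajc3* and *Creld2*) and in 0 of 18 ATF4-arm promoters, against 0.119% of all promoters. A related element, ERSE-II, searched as ATTGG and CCACG 1 base apart, was found only in *Herpud1* among the members (0.0365% of all promoters), and the XBP1 site TGACGTGG was found in 0 of the 34 (0.676% of all promoters). *Herpud1*, which tethers the machinery that retrieves misfolded proteins for degradation, was thus the 1 member with both the CARE core and an ER stress element. Capitals mark the ER stress elements and, in *Herpud1*, also the CARE core.
Hspa5 (chr2:34771995-34772073, plus strand): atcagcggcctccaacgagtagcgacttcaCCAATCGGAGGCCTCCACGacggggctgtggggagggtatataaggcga
Calr (chr8:84847045-84847123, minus strand): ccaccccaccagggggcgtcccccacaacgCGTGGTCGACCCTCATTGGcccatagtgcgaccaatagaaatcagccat
Pdia6 (chr12:17266461-17266539, plus strand): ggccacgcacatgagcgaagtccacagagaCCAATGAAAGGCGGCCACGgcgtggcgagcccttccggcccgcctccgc
Creld2 (chr15:88819490-88819568, plus strand): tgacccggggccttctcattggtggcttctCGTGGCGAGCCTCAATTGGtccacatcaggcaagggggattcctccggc
Herpud1 (chr8:94386287-94386417, plus strand): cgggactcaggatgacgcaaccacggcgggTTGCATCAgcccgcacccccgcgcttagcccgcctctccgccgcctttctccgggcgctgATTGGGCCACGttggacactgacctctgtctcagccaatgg
A match of letters is a description of the window and not evidence of binding.

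Both arms were well expressed in these osteoclasts, and all 39 genes passed the filter on low values. Per kilobase of exon and averaged over the 8 libraries, the ER arm was led by *Calr*, a calcium-binding lectin chaperone (16301 normalized counts per kilobase), *Pdia3*, the disulfide isomerase that works with it (8376), *Hspa5*, the ER HSP70 known as BiP (7942), and *Hsp90b1*, the ER HSP90 (6249). The sensors were lower on the same scale, with *Atf6* at 367, *Eif2ak3*, which encodes PERK, at 172 and *Ern1*, which encodes IRE1, at 161 normalized counts per kilobase. In the ATF4 arm, *Atf4* itself (3882) and *Slc3a2*, the shared heavy chain of several amino acid transporters (3684), were highest. *Phgdh*, the first enzyme of serine synthesis, was low (46.7 per kilobase), as were the mitochondrial folate enzyme gene *Aldh1l2* (14.3) and *Pycr1*, the last step of proline synthesis (6.86). *Pycr1* rested on 16 to 45 reads in a library, the fewest of any member.

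No member of either arm differed between *Elmo1-/-* and *Elmo1+/-* osteoclasts past the adjusted threshold. In limma on log2(normalized count + 1), adjusted over all 14139 genes, 0 of 20 ATF4-arm and 0 of 19 ER-arm members were called, with every adjusted p at 1.00. The exact p given below for single members is from a two-sided permutation test over the 70 arrangements of 4 and 4 libraries, unadjusted, with 0.0286 as the smallest value it can take. At an unadjusted p under 0.05 the count was 1 of 20 (*Aldh1l2*, lower in *Elmo1-/-*) and 0 of 19, against 0.941% of all genes tested (133 genes). With the replicate number as a block these counts were 2 of 20, with *Chac1* added, and 0 of 19, against 2.75% of all genes (389), and the adjusted count stayed at 0 in both arms. edgeR's quasi-likelihood test and DESeq2 on the recovered reads each had 1 of the 39 at an unadjusted p under 0.05 (1.01% and 0.927% of all genes) and 0 after adjustment. Leaving out single libraries moved the unadjusted count. It was 0 of 39 without *Elmo1+/-* library 1, *Elmo1+/-* library 2 or *Elmo1-/-* library 2, with 71, 112 and 89 of all genes. It was 3 without *Elmo1-/-* library 1 (*Atf4*, *Trib3* and *Chac1*, with 341 of all genes), 3 without *Elmo1+/-* library 4 (*Aldh1l2*, *Slc7a11* and *Ero1l*, with 202 of all genes) and 2 without *Elmo1+/-* library 3 (*Psph* and *Aldh1l2*, with 134 of all genes). The genotypes overlapped for all 39 members, where they did not overlap for 0.941% of all genes. The median log2 fold change was -0.077 over the ATF4 arm, with 6 members higher and 14 lower in *Elmo1-/-* by fitted value, and 0.016 over the ER arm, with 11 higher and 8 lower, beside -0.0031 over all genes. Within libraries 1 and 2 alone the medians were -0.11 and -0.053, and within libraries 3 and 4 alone -0.017 and 0.067. A p that misses the threshold leaves room for a difference, and the 95% intervals limit its size. All 39 intervals lay within a log2 change of 1 in either direction, and 11 of the 20 ATF4-arm and 18 of the 19 ER-arm intervals lay within 0.5. Of all 14139 genes tested, 12705 had intervals within 1 and 9268 within 0.5.

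**Figure D1:**
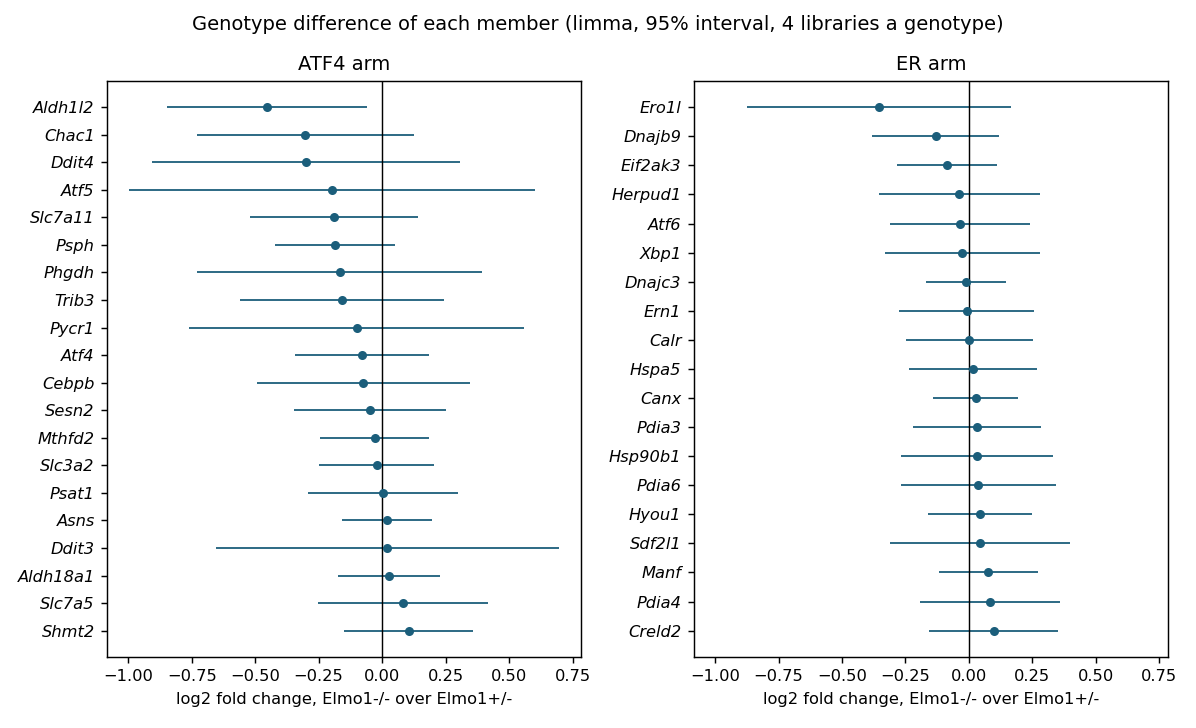
Points give the log2 fold change of each member, *Elmo1-/-* over *Elmo1+/-* (horizontal axis), with its 95% interval from limma over 4 libraries in each genotype, for the ATF4 arm (left) and the ER arm (right). The interval of *Aldh1l2* alone lies below 0 (-0.85 to -0.059), and the intervals of the other 38 members include 0.

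Among the transcription factors of the ATF4 arm, *Atf4*, its master regulator, had normalized counts of 11132, 7977, 8445 and 8194 in *Elmo1-/-* libraries 1 to 4 and 10166, 9767, 8603 and 8955 in *Elmo1+/-* libraries 1 to 4. The highest value belonged to *Elmo1-/-* library 1 and the lowest to *Elmo1-/-* library 2, so the knockout spanned the controls. The difference was within its error (log2 fold change -0.079, SE 0.12, exact p = 0.571). *Ddit3*, which encodes the pro-apoptotic factor CHOP, was also highest in knockout library 1, with 1875, 715, 715 and 866 in the *Elmo1-/-* libraries, against 1159.7, 1032, 822 and 795 in the *Elmo1+/-* libraries. *Elmo1-/-* library 1 alone stood far above the other 7, whose range was 715 to 1159.7, and the means were 1043 ± 559.5 (SD, n = 4) in *Elmo1-/-* and 952 ± 174 (SD, n = 4) in *Elmo1+/-* (log2 fold change 0.021, SE 0.30, exact p = 0.971). Without that library the log2 fold change of *Ddit3* was -0.30. The exons of *Ddit3* overlap those of *Mars*, on the opposite strand, over 68 of 1713 bases, and whether the authors counted reads by strand is not given in the sources used here.

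*Atf5*, a related factor that is also translated under stress, had the widest spread between the library sets in either arm, with 3137, 1402, 1321 and 1322 in *Elmo1-/-* libraries 1 to 4 and 2831, 2577, 1460.3 and 1247 in *Elmo1+/-* libraries 1 to 4. The values of *Elmo1-/-* library 1 and *Elmo1+/-* libraries 1 and 2 were high, and those of the other 5 libraries lay between 1247 and 1460, with no separation by genotype (log2 fold change -0.20, SE 0.35, exact p = 0.886). *Trib3*, a pseudokinase that dampens ATF4 and CHOP, ranged from 415 to 755 normalized counts, again lowest and highest in *Elmo1-/-* libraries 2 and 1 (log2 fold change -0.16, SE 0.18). *Cebpb*, a dimer partner of ATF4, ranged from 789 to 1269.6 (log2 fold change -0.075, SE 0.18). It shares 312 of 1504 exon bases (20.7%) with *Tmem189* on the opposite strand, which averaged 5764 normalized counts over the 8 libraries.

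The enzymes of serine and 1-carbon metabolism held the member with the largest genotype difference of all 39. *Aldh1l2* (chr10:83487450-83534140), which oxidizes a formyl folate in mitochondria, had 86.1, 67.0, 95.2 and 116 in *Elmo1-/-* libraries 1 to 4 and 138, 126, 113 and 116 in *Elmo1+/-* libraries 1 to 4. Of the *Elmo1-/-* libraries, 1, 2 and 3 lay below every control and library 4 lay within the control range, so the genotypes overlapped. The means were 91.1 ± 20.3 (SD, n = 4) in *Elmo1-/-* and 123 ± 11.3 (SD, n = 4) in *Elmo1+/-*, a log2 fold change of -0.45 (SE 0.17, limma p = 0.0288, adjusted p = 1.00), and the exact permutation test gave p = 0.0571. The difference was -0.78 within libraries 1 and 2 and -0.12 within libraries 3 and 4. Its exons share 1056 of 7503 bases with *D10Wsu102e* on the opposite strand, at mean normalized counts of 1276 (*Elmo1-/-*) and 1303 (*Elmo1+/-*) (log2 fold change -0.027), and without strand the reads of such partners cannot be told apart.

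*Mthfd2*, the mitochondrial folate dehydrogenase and cyclohydrolase typical of proliferating cells, was steadier, with 4143, 3664, 3343 and 3486 in the *Elmo1-/-* libraries, against 4091, 3983, 3349.9 and 3519.5 in the *Elmo1+/-* libraries. It was lower in all 4 libraries numbered 3 and 4 than in the others, whatever the genotype (log2 fold change -0.030, SE 0.094, exact p = 0.829). *Shmt2*, which supplies mitochondrial 1-carbon units from serine, showed the same order of the sets, with 1891 to 2314 normalized counts in libraries 3 and 4 and 2502 to 2797 in libraries 1 and 2, and its genotype log2 fold change was 0.10 (SE 0.11). Of the 3 enzymes that make serine, *Phgdh* ranged from 74.2 to 159 normalized counts, *Psat1* from 1896 to 2834 and *Psph* from 390.3 to 554. Their genotype log2 fold changes were -0.17, 0.0040 and -0.19, with SEs of 0.25, 0.13 and 0.10. *Psph* shares 452 of 4329 exon bases with *Cct6a* on the opposite strand, at mean normalized counts of 9008 (*Elmo1-/-*) and 8677 (*Elmo1+/-*).

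*Asns*, asparagine synthetase and a standard reporter of ATF4 activity, was the most even member of the arm, with 2378, 1964, 2206 and 2243 in *Elmo1-/-* libraries 1 to 4 and 2101, 2091, 2099.8 and 2373 in *Elmo1+/-* libraries 1 to 4. Its highest and lowest libraries differed by a ratio of 1.21 and both were *Elmo1-/-* (log2 fold change 0.019, SE 0.079, exact p = 0.829, 95% interval -0.16 to 0.20). In proline synthesis, *Aldh18a1*, the first step, ranged from 1031 to 1334 normalized counts (log2 fold change 0.027, SE 0.089). *Pycr1*, the last step, had 20.8, 22.7, 24.2 and 35.0 in the *Elmo1-/-* libraries, against 32.2, 15.8, 36.5 and 28.6 in the *Elmo1+/-* libraries, with the lowest and the highest value both among the controls (log2 fold change -0.10, SE 0.29, exact p = 0.743).

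Of the transporters, *Slc7a11*, the cystine importer that feeds glutathione synthesis, ranged in *Elmo1-/-* from 9616 to 11303 normalized counts and in *Elmo1+/-* from 8460.0 in library 4 to 13336. Controls 1, 2 and 3 lay above all 4 knockout libraries and control 4 below all of them (log2 fold change -0.19, SE 0.15, exact p = 0.314). Without control 4 the log2 fold change was -0.34 (limma adjusted p = 1.00), and within libraries 1 and 2 and within libraries 3 and 4 it was -0.40 and 0.020. *Slc3a2*, its heavy-chain partner, had 14151, 11982, 12112 and 13294 in the *Elmo1-/-* libraries, against 14449, 13098, 13774 and 11138 in the *Elmo1+/-* libraries, and knockout library 1 lay above controls 2, 3 and 4 (log2 fold change -0.022, SE 0.10, exact p = 0.857). *Slc7a5*, the leucine transporter, was lower in every library numbered 3 or 4, with 947 to 1273 normalized counts against 1337 to 1508, and had a genotype log2 fold change of 0.083 (SE 0.15).

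*Chac1*, *Ddit4* and *Sesn2* act as brakes or effectors further along the response. *Chac1*, which degrades glutathione, had 251, 164, 159 and 192 in *Elmo1-/-* libraries 1 to 4 and 298, 252, 199 and 195 in *Elmo1+/-* libraries 1 to 4, with each knockout library below the control of the same number (log2 fold change -0.30, SE 0.19, exact p = 0.171). With the replicate number as a block its limma p was 0.0287 and its adjusted p 1.00. *Ddit4*, an inhibitor of mTORC1 also known as REDD1, had 198, 125, 134 and 121 in the *Elmo1-/-* libraries, against 269, 205, 132 and 126 in the *Elmo1+/-* libraries. The 3 highest values were those of controls 1 and 2 and knockout 1, and the other 5 libraries lay between 121 and 134 (log2 fold change -0.30, SE 0.27, exact p = 0.257). *Sesn2*, a leucine sensor upstream of mTORC1, ranged from 1095 to 1553 normalized counts (log2 fold change -0.048, SE 0.13).

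**Figure D2:**
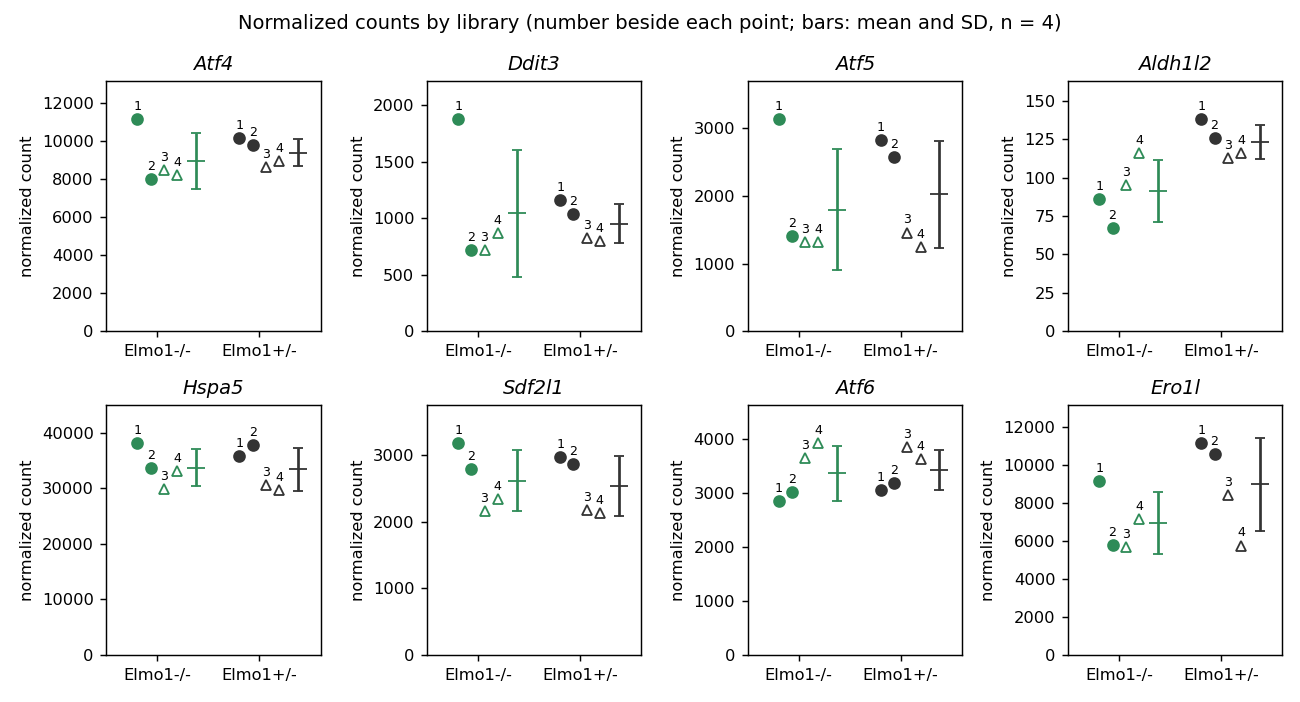
Normalized counts (vertical axis, from 0) of 8 members in each library, with *Elmo1-/-* in green and *Elmo1+/-* in black. Filled circles are libraries 1 and 2, open triangles libraries 3 and 4, the number beside a point is its library number, and the bar gives the mean and SD of 4 libraries. *Ddit3* is set by knockout library 1, *Aldh1l2* is lower in 3 of the 4 knockout libraries than in any control, and *Hspa5*, *Sdf2l1* and *Atf6* part by library set and not by genotype.

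In the ER arm the 3 sensors differed between genotypes by less than 1 SE of the difference. *Atf6*, the membrane-bound factor that is cleaved to enter the nucleus, had 2845, 3022, 3643 and 3924 in *Elmo1-/-* libraries 1 to 4 and 3057, 3174, 3852 and 3619 in *Elmo1+/-* libraries 1 to 4. *Ern1* had 1086, 1266, 1369 and 1539.5 in the *Elmo1-/-* libraries, against 1238, 1195, 1495 and 1340.0 in the *Elmo1+/-* libraries. For both sensors each library numbered 3 or 4 was above each library numbered 1 or 2, whatever the genotype, and the genotype log2 fold changes were -0.035 (SE 0.12, exact p = 0.771) and -0.0084 (SE 0.12, exact p = 1). *Eif2ak3* had 867, 1012, 1043 and 1097 in the *Elmo1-/-* libraries, against 1110.0, 1069.8, 1098 and 977 in the *Elmo1+/-* libraries. Knockout library 1 was the lowest and the remaining 7 libraries lay between 977 and 1110.0 (log2 fold change -0.086, SE 0.087, exact p = 0.371). *Xbp1*, the factor whose mRNA IRE1 splices, had 6174, 5038, 4389.7 and 4669.9 in *Elmo1-/-* libraries 1 to 4 and 5802, 5831, 4440.2 and 4565 in *Elmo1+/-* libraries 1 to 4. Its spliced and unspliced forms are not separated in counts per gene. The library sets of *Xbp1* did not overlap, in the opposite direction to *Atf6* and *Ern1*, and its genotypes did overlap (log2 fold change -0.026, SE 0.14, exact p = 0.943).

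Among the chaperones, *Hspa5*, *Calr* and *Sdf2l1* differed between genotypes by less than 1 SE of the difference. *Hspa5*, the chaperone that also holds the sensors inactive, had 38199, 33702, 29965 and 33149.6 in *Elmo1-/-* libraries 1 to 4 and 35758, 37740.3, 30535 and 29656 in *Elmo1+/-* libraries 1 to 4. All 4 libraries numbered 3 or 4 were below the others and the genotype means were 33754 ± 3390.5 (SD, n = 4) in *Elmo1-/-* and 33422 ± 3942 (SD, n = 4) in *Elmo1+/-* (log2 fold change 0.016, SE 0.11, exact p = 0.914, 95% interval -0.24 to 0.27). *Calr* had 54428, 40761, 44140.5 and 48935 in the *Elmo1-/-* libraries, against 51022, 48870.0, 44138 and 43271 in the *Elmo1+/-* libraries, with the extremes in knockout libraries 1 and 2 (log2 fold change 0.0023, SE 0.11, exact p = 0.914). *Sdf2l1*, a partner of BiP, had 3184, 2793, 2157 and 2336 in the *Elmo1-/-* libraries, against 2977, 2872, 2174 and 2137 in the *Elmo1+/-* libraries. Its sets were furthest apart of any ER-arm member while its genotypes overlapped (log2 fold change 0.043, SE 0.16, exact p = 0.714). *Dnajb9*, a BiP co-chaperone that represses IRE1, had 762, 909, 982 and 1079.8 in the *Elmo1-/-* libraries, against 981, 979, 1119 and 980.3 in the *Elmo1+/-* libraries. Knockout library 1 was lowest and control 3 highest (log2 fold change -0.13, SE 0.11, exact p = 0.400). The other chaperone genes, *Hsp90b1*, *Canx*, *Hyou1* and *Dnajc3*, had genotype log2 fold changes of 0.032, 0.027, 0.043 and -0.012, with SEs of 0.13, 0.074, 0.091 and 0.070.

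Of the genes that form disulfide bonds, *Pdia3* had 31335, 25869, 23908 and 25272 in *Elmo1-/-* libraries 1 to 4 and 28028, 28534, 23899 and 23499 in *Elmo1+/-* libraries 1 to 4. The libraries numbered 1 and 2 were above those numbered 3 and 4 in both genotypes (log2 fold change 0.031, SE 0.11, exact p = 0.829), and *Pdia4* and *Pdia6* had genotype log2 fold changes of 0.084 (SE 0.12) and 0.037 (SE 0.13). *Ero1l*, the oxidase that recharges these isomerases, had the largest genotype difference of the arm, with 9133, 5756, 5694 and 7119.5 in the *Elmo1-/-* libraries, against 11142, 10553, 8427 and 5749 in the *Elmo1+/-* libraries. Controls 1 and 2 were the highest libraries, knockout libraries 2 and 3 and control 4 lay together between 5694 and 5756, and the means were 6926 ± 1612 (SD, n = 4) in *Elmo1-/-* and 8968 ± 2442 (SD, n = 4) in *Elmo1+/-* (log2 fold change -0.35, SE 0.23, exact p = 0.286, 95% interval -0.87 to 0.16). Without control 4 the log2 fold change was -0.55 (limma adjusted p = 1.00). It was -0.58 within libraries 1 and 2 and -0.13 within libraries 3 and 4.

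*Herpud1* had 2271, 1914, 1855 and 1937 in the *Elmo1-/-* libraries, against 2474, 2372, 1779 and 1664 in the *Elmo1+/-* libraries. Controls 1 and 2 were highest and controls 3 and 4 were lowest or near it, so the control spread exceeded that of the knockout (log2 fold change -0.038, SE 0.14, exact p = 0.829). *Creld2*, an ER protein induced by ATF6, had 1537, 1501, 1183 and 1308 in the *Elmo1-/-* libraries, against 1478, 1344, 1144 and 1199 in the *Elmo1+/-* libraries, with a small excess in *Elmo1-/-* that was within its error (log2 fold change 0.10, SE 0.11, exact p = 0.429). *Manf*, a secreted ER stress protein, ranged from 3190.1 to 4043 normalized counts (log2 fold change 0.076, SE 0.086), and 166 and 146 of its 3524 exon bases are shared with *4930524O07Rik* and *Dcaf1* on the opposite strand.

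Both arms differed more between libraries than between genotypes, by size and with no test. The median absolute log2 difference between genotypes was 0.091 in the ATF4 arm and 0.037 in the ER arm (0.059 over all genes), and that between libraries 3 and 4 and libraries 1 and 2 was 0.25 and 0.26 (0.21 over all genes). The median log2 deviation of the ATF4-arm members from their own means was 0.25, -0.19, -0.14 and -0.079 in *Elmo1-/-* libraries 1 to 4 and 0.23, 0.14, -0.13 and -0.079 in *Elmo1+/-* libraries 1 to 4. For the ER arm it was 0.19, -0.0094, -0.13 and -0.012 in *Elmo1-/-* libraries 1 to 4 and 0.12, 0.096, -0.13 and -0.15 in *Elmo1+/-* libraries 1 to 4, while the median over all genes lay between 0.00085 and 0.0056 in every library. Libraries 1 of both genotypes and control 2 were thus high in both arms, libraries 3 and 4 were below or near the mean, and the arms parted in knockout library 2. *Elmo1-/-* library 1 had the highest of the 8 values for 11 of 20 ATF4-arm and 10 of 19 ER-arm members, against 27.1% of all genes tested. Among the 4 *Elmo1-/-* libraries it stood apart on the high side by Dixon's criterion, by which the gap to the next library takes up most of the range, for 5 of 20 ATF4-arm and 0 of 19 ER-arm members, against 3.92% of all genes. Over both genotypes 9 of 78 combinations of member and genotype had a library apart, high or low, against 5.41% of all combinations. *Elmo1-/-* library 2 was below each other library numbered 1 or 2 for 16 of 20 ATF4-arm members (12 of 19 in the ER arm, 34.1% of all genes), among them *Atf4*, *Ddit3*, *Trib3*, *Atf5*, *Chac1* and *Ddit4*. It was above each library numbered 3 or 4 for 4 of 20 ATF4-arm and 10 of 19 ER-arm members, against 31.6% of all genes. The ATF4-arm median of knockout library 2 was thus below that of every library numbered 3 or 4. Its ER-arm median was above all 4 of theirs, though close to that of *Elmo1-/-* library 4 (-0.0094 against -0.012).

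**Figure D3:**
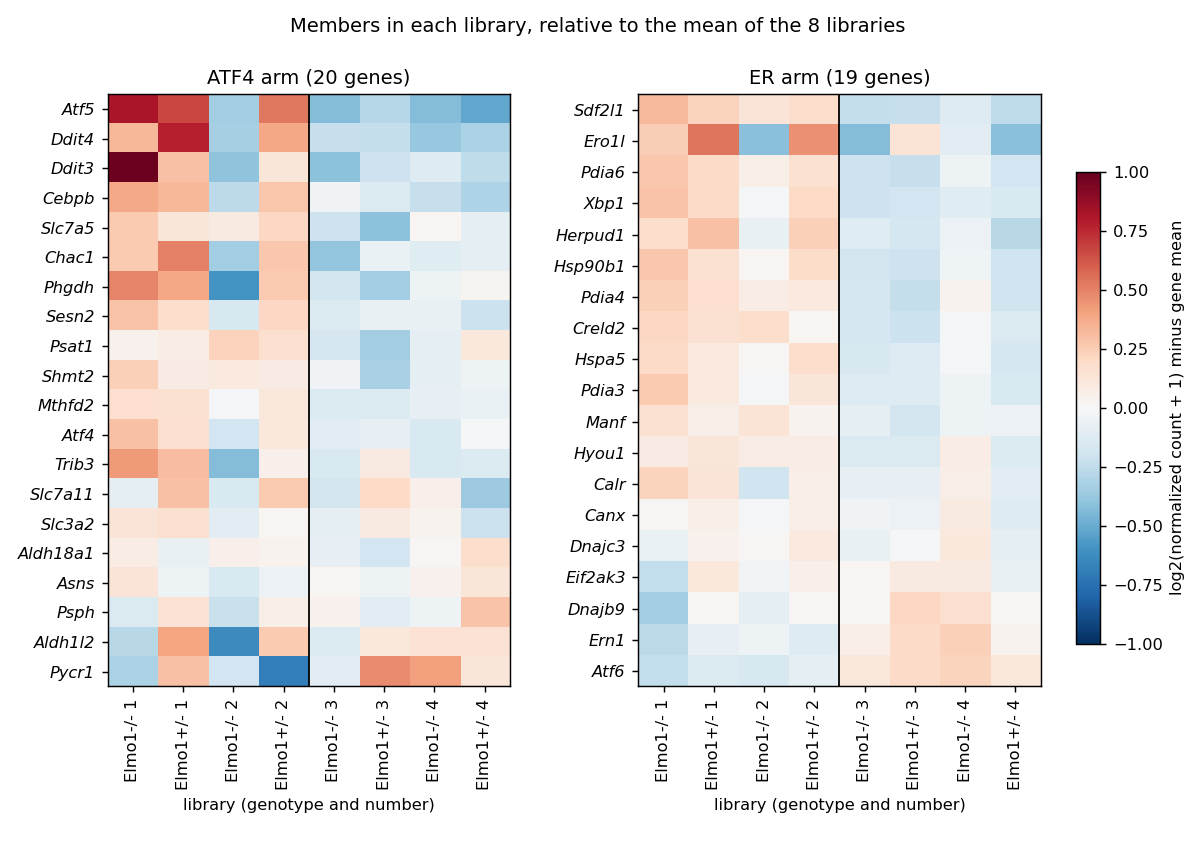
Each cell is the log2(normalized count + 1) of a member in a library minus the gene's mean over the 8 libraries (red higher, blue lower), for the ATF4 arm (left) and the ER arm (right), with libraries of the same number side by side and the black line between libraries 1 and 2 and libraries 3 and 4. Genes are ordered by the difference between these sets. In the ER arm 10 of 19 rows are lower and 2 higher in every library right of the line than in any left of it. In the ATF4 arm 3 of 20 rows are lower and 0 higher. Knockout library 2 is below each other library left of the line in 16 of 20 ATF4-arm rows. It is blue for *Atf5*, *Ddit4*, *Ddit3*, *Chac1* and *Phgdh* while control 2 is red.

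Between the library sets, both arms were lower in libraries 3 and 4 than in libraries 1 and 2. These sets were chosen with their separation known, and what the numbers stand for is not given, so the differences are descriptions without a test. The median log2 difference, libraries 3 and 4 minus libraries 1 and 2, was -0.23 over the ATF4 arm and -0.23 over the ER arm, beside -0.0072 over all genes. In the ER arm 10 of 19 members had all 4 values of libraries 3 and 4 below all 4 of libraries 1 and 2 (52.6%), against 15.8% of all genes tested, and 2 of 19 had them above (10.5%), against 18.1%. The 10 were *Hspa5* (-0.24), *Hsp90b1* (-0.31), *Pdia3* (-0.23), *Pdia4* (-0.29), *Pdia6* (-0.34), *Sdf2l1* (-0.42), *Hyou1* (-0.18), *Xbp1* (-0.34), *Manf* (-0.19) and *Creld2* (-0.28), each value a log2 difference between sets. They encode chaperones, isomerases, secreted stress proteins and the transcription factor XBP1. The 2 above were the sensors *Atf6* (0.31) and *Ern1* (0.26). The sets overlapped for the third sensor, *Eif2ak3* (0.059), and for the chaperone genes *Dnajb9* (0.20), *Calr* (-0.11), *Canx* (-0.065) and *Dnajc3* (-0.043). They also overlapped for *Herpud1* (-0.32) and *Ero1l* (-0.41). Rescaled by TMM the count below was 9, and with equal library totals the counts were 10 below and 3 above.

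In the ATF4 arm 3 of 20 members separated, all lower in libraries 3 and 4 (15%, against 15.8% of all genes): *Shmt2* (-0.25), *Mthfd2* (-0.21) and *Slc7a5* (-0.34). The differences were larger for *Atf5* (-0.83), *Ddit4* (-0.58), *Ddit3* (-0.50) and *Cebpb* (-0.36), but the sets overlapped and knockout library 2 lay at or near the level of libraries 3 and 4. Without regard to that library, the other 3 libraries numbered 1 or 2 were above each library numbered 3 or 4 for 11 of 20 ATF4-arm and 12 of 19 ER-arm members, against 25.5% of all genes. *Asns* (0.066), *Psph* (0.080), *Aldh1l2* (0.13) and *Pycr1* (0.45) were the 4 ATF4-arm members with a higher mean in libraries 3 and 4. Of the ER-arm genes with an ERSE in the promoter, 4 of 7 separated downward (*Hspa5*, *Hsp90b1*, *Pdia6* and *Creld2*), and 4 of 9 with a promoter and no ERSE did (*Pdia3*, *Pdia4*, *Sdf2l1* and *Xbp1*).

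Osteoclast markers moved with the sets, and markers of other cell types did so in part or not at all. The median set difference was 1.17 over the 10 osteoclast markers, all of them separated upward, against 18.1% of all genes tested. It was -0.25 over 8 macrophage markers, of which 3 separated downward, against 15.8% of all genes. Neutrophil markers had a median difference of -0.61, but only 1 of the 7 tested separated, downward, which is near the share of all genes (15.8%). Their summed normalized counts were 13141 to 22561 in libraries 1 and 2 and 10346 to 13737 in libraries 3 and 4. These ranges overlap, and *S100a8* (8539 to 17708) made up most of the sums. Of the B and plasma cell markers, *Cd79a*, *Ms4a1*, *Jchain* and *Mzb1* were under 10 normalized counts in every library. *Cd79b* reached 157 to 409 and *Ighm* 92.9 to 262, both highest in *Elmo1-/-* library 1. *Sdc1*, which is not limited to plasma cells, made up most of that list's sum. The sum was 4354 to 5682 in libraries 1 and 2 and 8033 to 9188 in libraries 3 and 4. *Sdc1* was higher, and *Cd79b* lower, in every library numbered 3 or 4 than in any numbered 1 or 2. All 6 erythroid markers were under 10. The sums of the other lists were 111 to 240.3 for T cells, 728 to 1622 for stromal cells and osteoblasts, and 190.4 to 502 for dendritic cells. *Cd4* (42.8 to 229) and *Trac* (6.62 to 70.4) made up most of the T-cell sum, and *Cd3e*, *Cd3d*, *Cd3g* and *Cd8a* were under 10. *Itgax* (167 to 467) made up most of the dendritic sum, and *Flt3*, *Cd209a* and *Siglech* were under 10. In the stromal and osteoblast list *Bglap* and *Alpl* were under 10. None of the 36 marker genes tested, of 57 listed, was called between genotypes, and the part of the cell make-up in the set differences of the 2 arms was not tested.

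The rest of the pathway, 160 genes in 9 lists of which 153 were tested, was compared in the same fit. None of these genes was called after adjustment by limma. At an unadjusted p under 0.05 there were 0 higher and 2 lower, against 0.941% of all genes. Under the replicate block there were 3, against 2.75% of all genes. The gene named for a list is the one with the smallest limma p. Of the 19 aminoacyl-tRNA synthetases, which charge tRNA and include many ATF4 targets, 6 lay higher and 13 lower in *Elmo1-/-* by fitted value, with a median log2 fold change of -0.024. *Kars* had a log2 fold change of 0.077 (exact p = 0.143). Of 23 other ATF4 targets tested, 8 lay higher and 15 lower in *Elmo1-/-* by fitted value, with a median log2 fold change of -0.034. The secreted glycoprotein gene *Stc2* was at -0.32 (exact p = 0.0571). Of 13 genes for eIF2 kinases, eIF2 subunits, its phosphatase and its exchange factor, 10 lay higher and 3 lower in *Elmo1-/-* by fitted value, with a median log2 fold change of 0.026. *Eif2ak2*, the kinase PKR, was at 0.17 (exact p = 0.114). Of 17 paralogs in 1-carbon, serine and proline metabolism, 10 lay higher and 7 lower in *Elmo1-/-* by fitted value, with a median log2 fold change of 0.033.

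On the ER side, of 20 genes of ER-associated degradation 7 lay higher and 13 lower in *Elmo1-/-* by fitted value, with a median log2 fold change of -0.017. *Derl3* was at -0.52 (exact p = 0.257) from only 9.75 and 13.6 mean normalized counts. Of 18 translocon and signal peptidase genes, 7 lay higher and 11 lower in *Elmo1-/-* by fitted value, with a median log2 fold change of -0.019. Of the 153 pathway genes tested, only the signal peptidase subunit gene *Sec11c* had genotypes that did not overlap, against 0.941% of all genes. It had 5163, 4578, 5047 and 4669.9 in the *Elmo1-/-* libraries, against 5294, 5591, 5530.4 and 5419 in the *Elmo1+/-* libraries (log2 fold change -0.17, SE 0.065, exact p = 0.0286, limma adjusted p = 1.00). Of 23 other ER folding genes, 8 lay higher and 15 lower in *Elmo1-/-* by fitted value, with a median log2 fold change of -0.0085. Among them *Ero1lb*, the paralog of *Ero1l*, had 414, 401, 300.5 and 346 in the *Elmo1-/-* libraries, against 738, 378, 629 and 543 in the *Elmo1+/-* libraries. Its genotypes overlapped, and its log2 fold change was -0.61 (SE 0.20, exact p = 0.0857, limma adjusted p = 1.00), with the same sign as *Ero1l*. *Ero1lb* lies on the chromosome of *Elmo1*, 7.48 Mb away, and the part of that in its difference was not tested. Of 8 sensor paralogs and site proteases 4 lay higher and 4 lower in *Elmo1-/-* by fitted value, with a median log2 fold change of 0.0039. *Creb3* was at -0.11 (exact p = 0.20). Of 14 cytosolic and mitochondrial heat shock genes 8 lay higher and 6 lower in *Elmo1-/-* by fitted value, with a median log2 fold change of 0.016. *Hsph1* was at 0.14 (exact p = 0.229).

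The set differences of these neighbouring lists are given as a description, and no test compared them with the 2 arms. The median log2 difference between sets was 0.013 over the synthetases, 0.041 over the other ATF4 targets, 0.066 over ER-associated degradation, -0.034 over the translocon and -0.082 over the other ER folding genes.

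**Figure D4:**
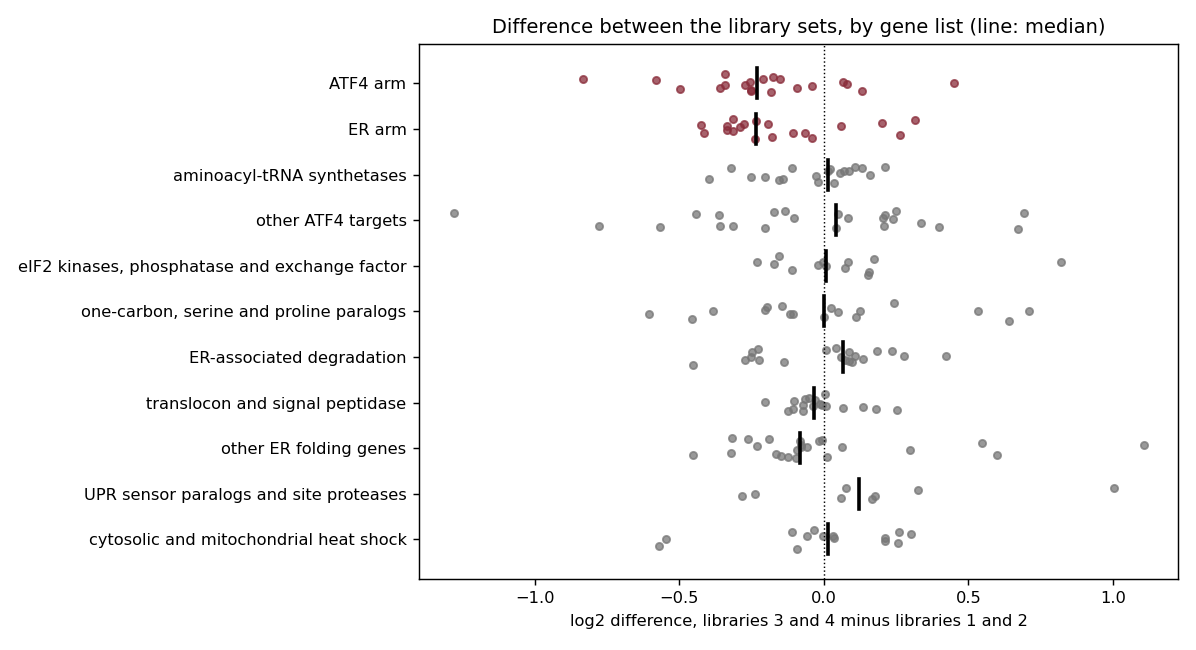
Each point is the mean log2(normalized count + 1) of libraries 3 and 4 minus that of libraries 1 and 2 for 1 gene, by gene list, with the median as a black line. Both arms (dark red) have medians of -0.23, and the medians of the other lists (grey) lie between -0.082 and 0.12.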

How the data were processed

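Per the labels and the study's methods, total RNA of osteoclast cultures was turned into mRNA libraries (Illumina TruSeq), sequenced on a NextSeq and normalized with DESeq2 by the authors. The submitters' processing notes also name FastQC, STAR and featureCounts. Tool settings, the use of strand, the build and the annotation behind these counts were not given in the sources used here. What was deposited is normalized signal for 46517 Ensembl genes in 8 libraries, in which reads per gene were scaled by a size factor of the library. The deposited table also holds the authors' own genotype comparison (mean, log2 fold change, its error, test statistic, p-value and adjusted p-value), which was not used.

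Names and positions came from the GENCODE annotation of GRCm38, and 46005 identifiers matched. All 39 members matched. Every value in each library was a whole multiple of its size-factor step to within 0.01 of a read (100%), which gave the read totals of 20905502 to 40846651. The main test was limma 3.58.1 (trend and robust) in R 4.3.3 on log2(normalized count + 1), after genes that did not reach 10 normalized counts in 4 or more libraries were left out, and p-values were adjusted by the Benjamini-Hochberg method over the 14139 genes that remained. A fold change on this scale understates changes of low genes. Single members were also tested by an exact permutation test over the 70 arrangements. edgeR 4.0.16 and DESeq2 1.42.0 on the recovered reads were alternatives. The fits were tested on simulated data with 200 changed genes.

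The members, the gene lists, the markers and the library sets were chosen with earlier results of these data known, so list counts and medians are descriptions. Values by library are given for *Atf4*, *Ddit3*, *Asns*, *Hspa5*, *Xbp1* and the sensors, and in each arm for the 4 largest genotype differences, the 4 widest ranges, the 3 highest levels per kilobase and all members at an unadjusted p under 0.05 or with genotypes that do not overlap. Of each other pathway list, the gene with the smallest limma p is named, except for 1 list whose gene is not reported here.

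The deviations of same-numbered libraries from their genotype means correlated across genes at 0.703, 0.156, 0.598 and 0.52 for numbers 1 to 4. All exceed 0.1, and the numbers, which come from the titles, were taken to pair the libraries. Libraries with different numbers in the same set correlated at 0.0259 to 0.691 too. *Elmo1-/-* library 4 correlated more with *Elmo1+/-* library 3 (0.614) than with *Elmo1+/-* library 4 (0.52). The correlations therefore do not tell pairs by number from the sets, and the replicate block rests on the titles. Libraries are separate mice by the methods. Promoter windows came from RefSeq (GRCm38.p6), and 13 members share exon bases with another gene in the annotation.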

Additional observations from a re-analysis of the deposited data

Results flagged for a closer look

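Within a genotype, the highest or lowest of the 4 libraries stood apart from the other 3 by Dixon's criterion for 9 of 78 combinations of member and genotype, or 11.5%. The share over all genes tested was 5.41% of 28278 combinations. Chance flags about 1 in 20 groups if the 4 libraries of a genotype were exchangeable, but each genotype holds 2 libraries of either set, and the sets stand apart. Of these 9, 5 were high values of *Elmo1-/-* library 1 in the ATF4 arm (5 of 20 members, against 3.92% of all genes). They were *Atf4* at 11132 normalized counts (others 7977 to 8445), *Ddit3* at 1875 normalized counts (others 715 to 866), *Sesn2* at 1553 normalized counts (others 1136 to 1206), *Ddit4* at 198 normalized counts (others 121 to 134) and *Atf5* at 3137 normalized counts (others 1321 to 1402). The other 15 ATF4-arm members and all 19 ER-arm members did not meet the criterion in that library. In the controls, library 4 was high for *Asns* at 2373 normalized counts (others 2091 to 2101) and low for *Slc7a11* at 8460.0 normalized counts (others 12503 to 13336). *Dnajb9* was high in control 3 at 1119 normalized counts (others 979 to 981), and *Hyou1* was low in *Elmo1-/-* library 3 at 4714 normalized counts (others 5485 to 5518). The members of an arm share their libraries, so these values are not independent of one another.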

How the results depend on the processing

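Over 20 alternatives (edgeR, DESeq2, TMM, equal totals, no filter, a minimum of 50, pseudocounts of 0.5 and 8, the replicate block, the library set as a term, each set alone and each of the 8 libraries left out), 0 members of either arm were called, and the smallest adjusted p of any member was 0.937. With the replicate block 0 of 20, 0 of 19 and 1 of all genes were called, with the arm medians at -0.077 and 0.016. The count over all genes was 1 in limma on all 8 libraries, 2 with DESeq2, 2 in libraries 3 and 4 alone, and 1 to 2 with a library left out, with 2 called without *Elmo1+/-* replicate 2. With a library left out, 71 (*Elmo1+/-* replicate 1) to 341 (*Elmo1-/-* replicate 1) genes of all had an unadjusted p under 0.05, against 133. The arm medians then ranged over -0.18 to -0.0019 in the ATF4 arm and -0.037 to 0.053 in the ER arm, whose sign therefore depends on single libraries, and the medians of the set difference over -0.27 to -0.19 and -0.27 to -0.19. Of the 22 members given by library, 8 kept 1 sign in every setting. Log2 fold changes took the other sign in libraries 3 and 4 alone for *Asns* (-0.0050), *Ddit3* (-0.039), *Slc3a2* (0.035), *Atf6* (0.018), *Ern1* (0.036), *Eif2ak3* (0.046), *Xbp1* (0.0080) and *Herpud1* (0.14), in libraries 1 and 2 alone for *Hspa5* (-0.034) and *Calr* (-0.084), and with TMM for *Ern1* (0.00063). With single libraries left out the values that took both signs ranged over -0.020 to 0.072 for *Asns*, -0.30 to 0.16 for *Ddit3*, -0.091 to 0.015 for *Mthfd2*, -0.35 to 0.041 for *Pycr1*, -0.10 to 0.027 for *Slc3a2*, -0.11 to 0.041 for *Atf6*, -0.088 to 0.080 for *Ern1*, -0.13 to 0.039 for *Xbp1*, -0.045 to 0.077 for *Hspa5*, -0.070 to 0.069 for *Calr*, -0.056 to 0.13 for *Sdf2l1*, -0.050 to 0.080 for *Pdia3* and -0.14 to 0.054 for *Herpud1*. The cause was not tested, and none of these differences was past a threshold in limma on all 8 libraries. The least counted member, *Pycr1*, had 16 to 45 reads in a library, and counting error was not separated from the spread between libraries.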
